A study of Mus musculus with 6 samples.

Results

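The epidermal differentiation complex is a cluster of genes that keratinocytes switch on as they leave the basal layer and turn into the flat, dead cells of the skin surface. In the mouse it lies on chromosome 3. The genes compared here are the protein-coding genes of that chromosome that start in the window of this cluster (mm10) and whose symbols begin with Sprr, Lce or S100a, or are Lor, Flg, Flg2, Hrnr, Rptn, Ivl, Crct1, Crnn, Smcp, Pglyrp3 or Pglyrp4. This rule gave 62 genes of the 55291 in the deposited table, spread from position 90511034 to 93564643. Another 56 protein-coding genes lie in the same window and were not members. The rule uses position and name, not expression.

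The products of these genes work together at the end of keratinocyte life. Loricrin, involucrin, the small proline-rich (SPRR) proteins and the late cornified envelope (LCE) proteins are cross-linked by transglutaminases into the cornified envelope, the protein shell that replaces the cell membrane. Filaggrin and its relatives are stored in the granules of the granular layer, bundle keratin and are then broken down into the small molecules that hold water in the horny layer. S100 proteins bind calcium, and S100a8 and S100a9 form a dimer that is abundant in neutrophils and is induced in stressed keratinocytes.

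Dorsal skin was taken at day 40 from 3 wild-type samples of strain C57BL/6 and 3 samples of strain B6.Cg-Fbn1Tsk/J, which carry tight skin (Tsk), an allele of the fibrillin gene Fbn1 that alters the microfibrils of the dermis. The labels give the Tsk genotype as Fbn1+/-. Tsk is known as a duplication inside Fbn1 and not as a lost copy, so it is assumed here that the samples carry 1 Tsk copy. Strips of shaved skin were frozen whole, so that epidermis, follicles, dermis, fat and the thin muscle layer were sequenced together after removal of ribosomal RNA. The samples are numbered 1 to 3 in wild type and 4 to 6 in Tsk, and the labels do not say that each is a separate animal, so p-values rest on the scatter among these 6 samples, which may be technical. In bulk skin, fewer cells of a type and less RNA per cell cannot be told apart.

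Libraries held 17561453 to 19219814 counts. Fbn1 itself was at 261, 351 and 296 CPM in wild type and 1450, 2053 and 1781 CPM in Tsk, with a fitted log2 fold change of 2.54 ± 0.24 (SE; adjusted p = 0.00401 by edgeR). CPM here are counts over a library total that TMM has corrected for differences in RNA makeup. Skeletal muscle markers took 174900 to 317900 CPM in wild type and 137400 to 167100 CPM in Tsk, without overlap. None of the 20 passed the edgeR test, with 13 lower and 1 higher at an unadjusted p under 0.05, while DESeq2 called 15 lower and 1 higher, and their median log2 fold change was -0.79. The 11 markers of basal epidermis all lay below 0 without passing the edgeR test, with 3 at an unadjusted p under 0.05, 1 called by DESeq2 and a median of -0.45, and summed to 7584 to 10150 CPM in wild type and 5174 to 7858 CPM in Tsk. Fits with either marker score as a covariate are given beside the counts of calls. Among 19971 genes tested, 3.42% passed an adjusted p under 0.05, 2.72% higher in Tsk and 0.696% lower, and 79.7% of the calls were higher. Scaling to library totals alone raised the median of all genes by 0.28 on the log2 scale and made 94.6% of the calls higher.

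Loricrin, the small proline-rich genes Sprr1a and Sprr4, the late envelope gene Lce1m and the neighbouring Crct1 were higher in Tsk skin, and no tested member passed as lower. Of the 62 members, 40 had enough counts for a test and 22 did not. Of the 40, 5 rose, against a background of 2.72% of all genes tested, none fell, against 0.696%, and 35 did not pass. By DESeq2, 6 rose and none fell, against a background of 1142 higher and 444 lower among the 19971 genes tested. At an unadjusted edgeR p under 0.05 there were 10, 8 higher and 2 lower, against a background of 20.1%. The groups did not overlap for 8 of the 40 with Tsk above wild type (14.1% of all genes tested) and for 1 with Tsk below (10.6%). The log2 fold change lay above 0 in 28 and below 0 in 12, with a median of 0.30, beside -0.03 over all genes tested. Their median coefficient of variation was 31.0% in wild type and 34.2% in Tsk, beside 16.2% and 15.97% for all genes tested. Of the 40, 11 reached the level that the filter asks for in all 3 libraries of at most 1 group, Sprr4 and S100a9 among them, so the counts over tested members describe these genes and carry no further weight. Leaving out 1 library changed which of the 62 members entered the test. The lower call in these fits was S100a8 each time, which is not among the 40. When wild-type replicate 1 was left out, 8 were called (7 higher and 1 lower). The count was 2 when wild-type replicate 2 was left out (1 higher and 1 lower), 0 when wild-type replicate 3 was, and 3 when Tsk replicate 4 was (2 higher and 1 lower). Without Tsk replicate 5 it was 4 higher and 1 lower, and without Tsk replicate 6 it was 3 higher and 1 lower. With the skeletal muscle markers as a covariate 0 were called, with log2 fold changes of 1.69 for Lor, 1.27 for Sprr1a, 2.71 for Sprr4, 1.07 for Crct1 and 0.90 for Lce1m. With the basal epidermis markers 4 were called, 3 of them among the 5 named above. The calls over all genes shifted too, from 683 in the main fit to 67 with the muscle covariate and 114 with the basal covariate. Without wild-type replicate 3 they numbered 63, and without wild-type replicate 1 they numbered 1381. The counts of 0 members are therefore not particular to the complex.

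The 62 genes together held 0.155%, 0.0845% and 0.108% of all counts in the wild-type libraries and 0.254%, 0.214% and 0.181% in the Tsk libraries. Every Tsk library lay above every wild-type library. Flg2 alone made up 36.3 to 48.0% of these counts, which grow with gene length. Its exons cover 20803 bases. Per kilobase of exon, Flg2 was at 23.0 CPM in wild type and 44.1 CPM in Tsk, and Lor at 23.5 and 81.0 CPM. Over its coding transcript of 7011 bases, Flg2 was at 68.2 and 131 CPM per kilobase. On the TMM-adjusted scale, the 62 genes summed to 1519, 1029 and 1216 CPM in wild type and 2396, 1927 and 1612 CPM in Tsk. Without Flg2 this sum was 967, 593 and 768 CPM in wild type and 1265, 1002 and 912 CPM in Tsk. The groups then overlapped on this scale, since wild-type replicate 1 lay above Tsk replicate 6. The overlap is stated for TMM-adjusted CPM only, and not for the shares of all counts given first.

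**Figure D1:**
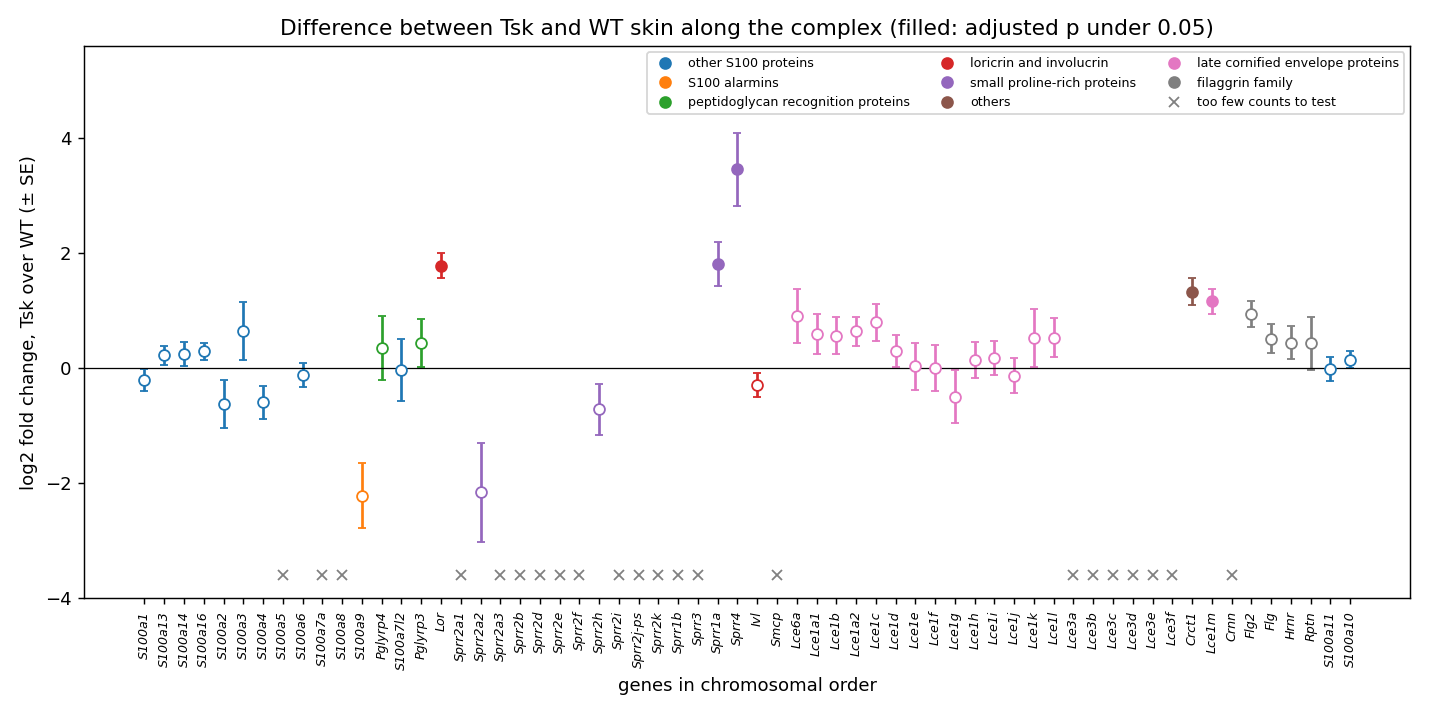
Log2 fold change of Tsk over wild type (points, with bars of ± SE) for the 40 tested genes in their order along chromosome 3, coloured by role; filled points passed an adjusted p under 0.05 and crosses mark the 22 genes with too few counts. The 5 filled points (Lor, Sprr1a, Sprr4, Crct1 and Lce1m) all lie above 1, and the S100 genes other than S100a9 lie between -0.62 and 0.65.

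The stretches in front of the genes are shown for those the results turn on. They are the 250 bases before the annotated start of Lor, Sprr1a, Sprr4 and Lce1m, which rose, and of Ivl, which like Lor has an AP-1 and a TATA match and did not pass the test. They come from RefSeq (GRCm38.p6), all on the minus strand, written 5′ to 3′. Capitals mark matches to the AP-1 motif TGANTCA and to the TATA motif TATAAA.
Lor (chr3:92083143-92083392): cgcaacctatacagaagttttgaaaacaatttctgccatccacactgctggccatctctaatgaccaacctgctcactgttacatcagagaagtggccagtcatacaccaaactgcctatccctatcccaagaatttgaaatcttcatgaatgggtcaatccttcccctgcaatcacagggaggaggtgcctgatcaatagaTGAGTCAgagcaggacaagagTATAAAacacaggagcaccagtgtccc
Sprr1a (chr3:92485882-92486131): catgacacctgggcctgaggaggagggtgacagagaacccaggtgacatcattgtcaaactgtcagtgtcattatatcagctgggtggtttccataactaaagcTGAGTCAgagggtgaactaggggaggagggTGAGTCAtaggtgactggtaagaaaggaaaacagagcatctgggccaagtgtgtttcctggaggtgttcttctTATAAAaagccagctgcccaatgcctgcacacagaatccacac
Sprr4 (chr3:92500494-92500743): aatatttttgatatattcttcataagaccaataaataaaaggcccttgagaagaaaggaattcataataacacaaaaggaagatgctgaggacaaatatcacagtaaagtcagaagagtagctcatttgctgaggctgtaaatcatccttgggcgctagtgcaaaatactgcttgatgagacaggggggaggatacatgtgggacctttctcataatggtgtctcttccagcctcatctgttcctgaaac
Lce1m (chr3:93019062-93019311): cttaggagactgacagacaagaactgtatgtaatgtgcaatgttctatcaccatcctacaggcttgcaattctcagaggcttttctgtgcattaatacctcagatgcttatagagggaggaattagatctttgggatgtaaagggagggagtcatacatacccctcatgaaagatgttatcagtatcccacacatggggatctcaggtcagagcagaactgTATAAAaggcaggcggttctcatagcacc
Ivl (chr3:92573736-92573985): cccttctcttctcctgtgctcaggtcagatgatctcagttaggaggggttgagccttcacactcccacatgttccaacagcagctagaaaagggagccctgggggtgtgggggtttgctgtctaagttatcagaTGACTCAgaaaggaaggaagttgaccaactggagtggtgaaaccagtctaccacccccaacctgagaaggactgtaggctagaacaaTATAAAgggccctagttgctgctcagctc

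Such stretches were found for 54 of the 62 members and for 27025 genes in all. Each motif was searched on both strands, and the letters of the AP-1 and TATA motifs cannot overlap. TGANTCA occurred in 17 of the 54 members (31.5%) and in 6.87% of all stretches. TATAAA occurred in 23 members (42.6%) and in 12.97% of all stretches. In Lor, the AP-1 match begins 48 bases and the TATA match 27 bases before the start. Sprr1a has 2 AP-1 matches, at 146 and 116 bases, and a TATA match at 43 bases. Ivl has an AP-1 match at 116 bases and a TATA match at 29 bases, while Lce1m has a TATA match alone, at 29 bases, and Sprr4 has neither in this window. Of the other motifs searched, CACCC occurred at 148 and 65 bases in Ivl. Of the 4 risen members with a stretch, Sprr1a also held CACCC, while Lor, Sprr4 and Lce1m did not. CACCC occurred in 48.1% of members and 51.3% of all stretches, CCAAT in 24.1% and 34.5%, and AACCNGTT, the grainyhead motif, in 3.7% and 1.71%. A match describes letters and not a bound site.

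Of the genes of 2 envelope proteins, loricrin and involucrin, Lor rose and Ivl did not pass the test. Lor encodes loricrin, the main protein of the cornified envelope of the epidermis. It was at 46.9, 33.1 and 45.6 CPM in wild type and 185, 136 and 110.5 CPM in Tsk. Every Tsk library lay above every wild-type library, and the means were 41.9 ± 7.62 and 144 ± 37.9 CPM (SD, n = 3 each). Lor rose by 1.78 ± 0.22 on the log2 scale (SE, edgeR adjusted p = 0.00792), the smallest adjusted p among the members. It passed in 5 of the 6 fits that left out 1 library and had an adjusted p of 0.0545 without wild-type replicate 3.

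Ivl encodes involucrin, an early scaffold of the envelope. Its levels were 19.5, 25.4 and 14.8 CPM in wild type and 19.8, 14.8 and 14.2 CPM in Tsk, so the groups overlapped. Its log2 fold change was -0.29 ± 0.22 (SE, edgeR adjusted p = 0.503), and it was near 0 (0.01) on the deposited CPM values. Counted within a library, there were 2.41, 1.30 and 3.08 Lor counts per Ivl count in wild type and 9.35, 9.23 and 7.80 in Tsk. Against Krt10, the keratin of the spinous and granular layers, Lor stood at 0.0603, 0.0524 and 0.0575 counts per count in wild type and 0.124, 0.128 and 0.144 in Tsk. For both ratios, the 3 Tsk libraries lay above the 3 wild-type libraries. These ratios do not depend on how libraries are scaled.

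**Figure D2:**
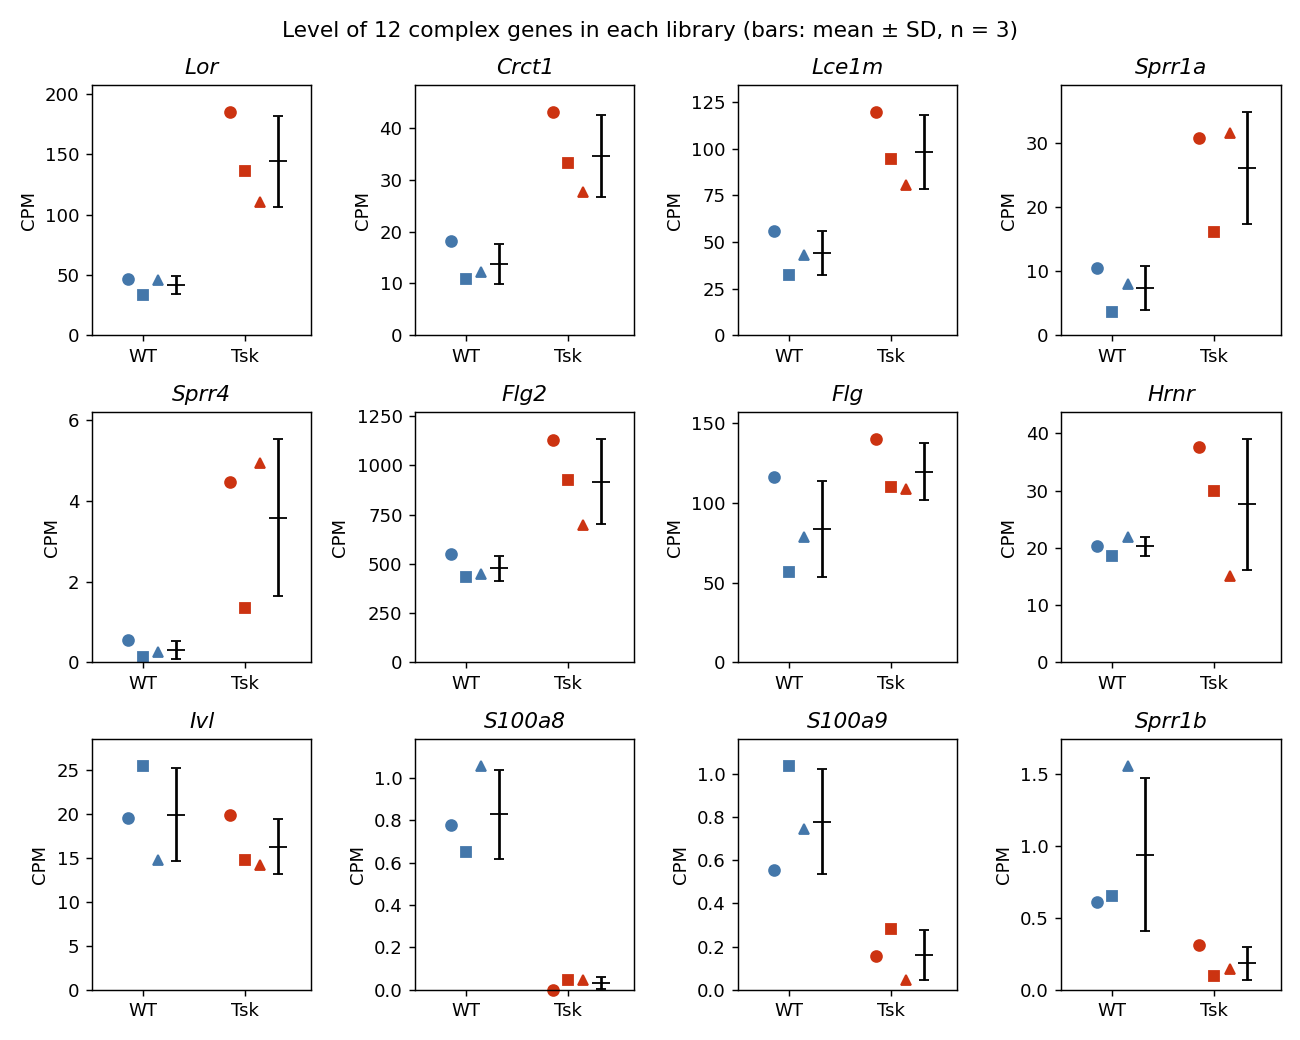
CPM of 12 complex genes in each library (vertical axis, linear from 0), wild type in blue and Tsk in red, with bars of mean ± SD (n = 3). Lor, Crct1, Lce1m, Sprr1a, Sprr4 and Flg2 are higher in all 3 Tsk libraries, S100a8, S100a9 and Sprr1b are lower in all 3, and Flg, Hrnr and Ivl overlap.

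Among the 15 small proline-rich genes, which encode cross-linked linkers of the envelope, Sprr1a and Sprr4 were the only ones above the threshold of those tested. Just 4 of the 15 could be tested and 6 had counts that rounded to 0 in every library. Sprr1a was at 10.5, 3.69 and 8.01 CPM in wild type and 30.8, 16.1 and 31.5 CPM in Tsk. The groups were separated, and Sprr1a rose by 1.81 ± 0.38 (log2 fold change ± SE, edgeR adjusted p = 0.0424). This call passed in 1 of the 6 fits that left out 1 library, the fit without Tsk replicate 5, and had adjusted p-values up to 0.160 in the others.

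Sprr4, known from work on ultraviolet-exposed skin, was scarce in wild type, with 10, 2 and 4 counts, and reached 86, 29 and 105 counts in Tsk. Every Tsk library was above every wild-type library. The summed counts, scaled to library size, were 10.99 times higher in Tsk, with a 95% exact counting interval of 6.62 to 19.6 that covers counting error only. The log2 fold change was 3.46 ± 0.63 (SE, edgeR adjusted p = 0.0271), on few wild-type counts, and the call held in 2 of the 6 fits that left out 1 library. Sprr1a and Sprr4 lie 14.4 kb apart with no other annotated gene between them.

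The relative Sprr1b, whose product is also an envelope linker, had 11, 10 and 25 counts in wild type and 6, 2 and 3 counts in Tsk. It was too scarce for the test, and its wild-type total was 5.23 times the Tsk total (95% exact counting interval 2.67 to 11.2). Without a filter on low counts it had an edgeR adjusted p of 0.0269. In each library Sprr1a counts outnumbered Sprr1b counts, with ratios of 17.2, 5.70 and 5.16 in wild type and 99.2, 172 and 223 in Tsk.

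Sprr2a2 stood at 197.5, 32 and 274.2 counts in wild type and 72.5, 55.9 and 8 counts in Tsk. The groups overlapped, and the log2 fold change was -2.16 ± 0.86 (SE, edgeR adjusted p = 0.221). Only 3.55% of the 50-base stretches of its transcript are unique to it, since it overlaps Sprr2a1 and resembles Sprr2a3 and Sprr2b, so its counts cannot be assigned to 1 of these genes. Of the 11 Sprr2 members, Sprr2h was the other one tested, with a log2 fold change of -0.71 ± 0.44.

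The late cornified envelope genes encode small proteins added late to the envelope, and the Lce1 genes made up nearly all of their counts. Of the 21 members, 15 were tested and 1 rose. All 6 Lce3 genes, which human skin is known to induce after injury, had at most 4 counts in any library. Lce1m was at 56.0, 32.5 and 43.3 CPM in wild type and 119.8, 94.7 and 80.5 CPM in Tsk. It rose by 1.16 ± 0.22 (log2 fold change ± SE, edgeR adjusted p = 0.0293), without overlap of the groups, and passed in 2 of the 6 fits that left out 1 library.

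The other 13 Lce1 genes all had enough counts for a test and none passed in the main edgeR fit or by DESeq2, with 2 higher at an unadjusted edgeR p under 0.05. Lce1c passed in 1 of its 13 alternative fits on all 6 libraries. Their log2 fold changes ran from -0.49 to 0.79, and 11 lay above 0. Of these, Lce1a2 was separated between the groups, at 25.2, 15.4 and 21.8 CPM in wild type and 44.6, 25.6 and 27.3 CPM in Tsk (log2 fold change 0.64 ± 0.25, edgeR adjusted p = 0.204). In the other 12 the groups overlapped. Summed to 1 feature, the 14 Lce1 genes were at 207, 108 and 163 CPM in wild type and 354, 241 and 199.6 CPM in Tsk, and the summed log2 fold change was 0.73 ± 0.28 (edgeR adjusted p = 0.194). Lce1m made up more of the family in Tsk, with 0.372, 0.431 and 0.362 Lce1m counts per count of the others in wild type and 0.511, 0.648 and 0.676 in Tsk. All 50-base stretches of the Lce1m transcript are unique to it, against 72.9 to 90.9% for the other 13, whose reads can be split between them. Lce6a, which lies before the Lce1 genes, had a log2 fold change of 0.91 ± 0.47 (edgeR adjusted p = 0.324).

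**Figure D3:**
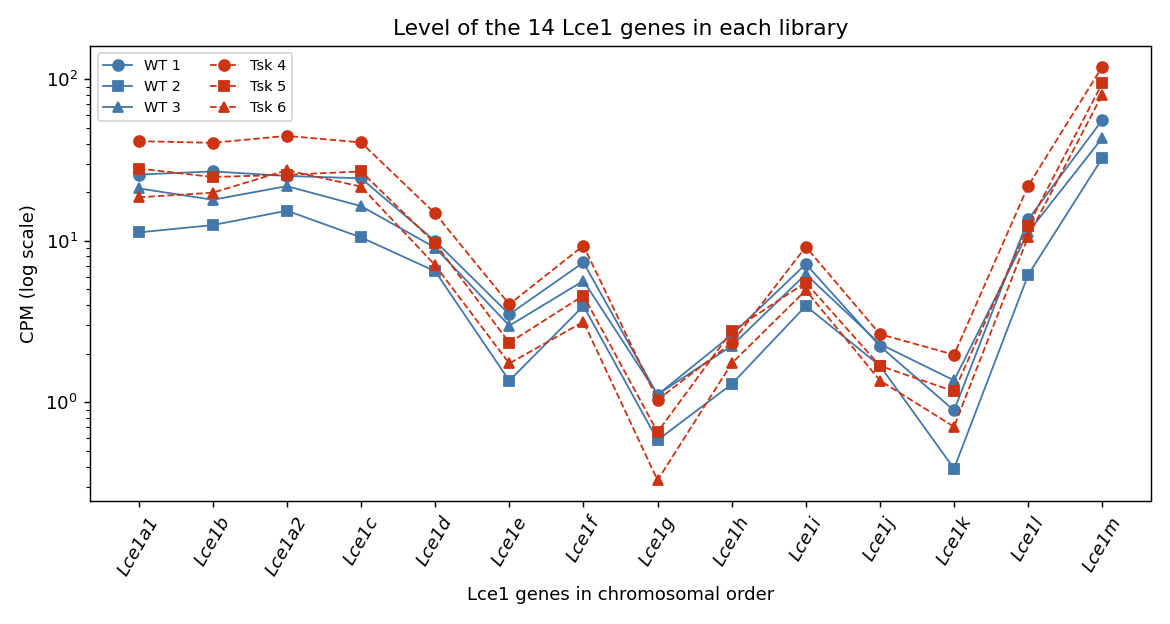
CPM (log scale) of the 14 Lce1 genes in their order along the chromosome, each line 1 library, wild type solid in blue and Tsk dashed in red. Lce1m is the highest in every library and the gene whose Tsk lines lie furthest from the wild-type lines, while the groups overlap in 12 of the other 13.

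Crct1, a small cysteine-rich gene named after its C-terminus, is the immediate neighbour of Lce1m, 2.12 kb away with no gene between. It was at 18.2, 10.8 and 12.2 CPM in wild type and 43.1, 33.2 and 27.6 CPM in Tsk. The groups were separated, and Crct1 rose by 1.33 ± 0.23 (log2 fold change ± SE, edgeR adjusted p = 0.0219), passing in 4 of the 6 fits that left out 1 library. There were 0.325, 0.333 and 0.283 Crct1 counts per Lce1m count in wild type and 0.360, 0.351 and 0.343 in Tsk. The gap from these genes back to Lce1l, the last of the other Lce1 genes, is 163 kb and holds 10 annotated genes.

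**Figure D4:**
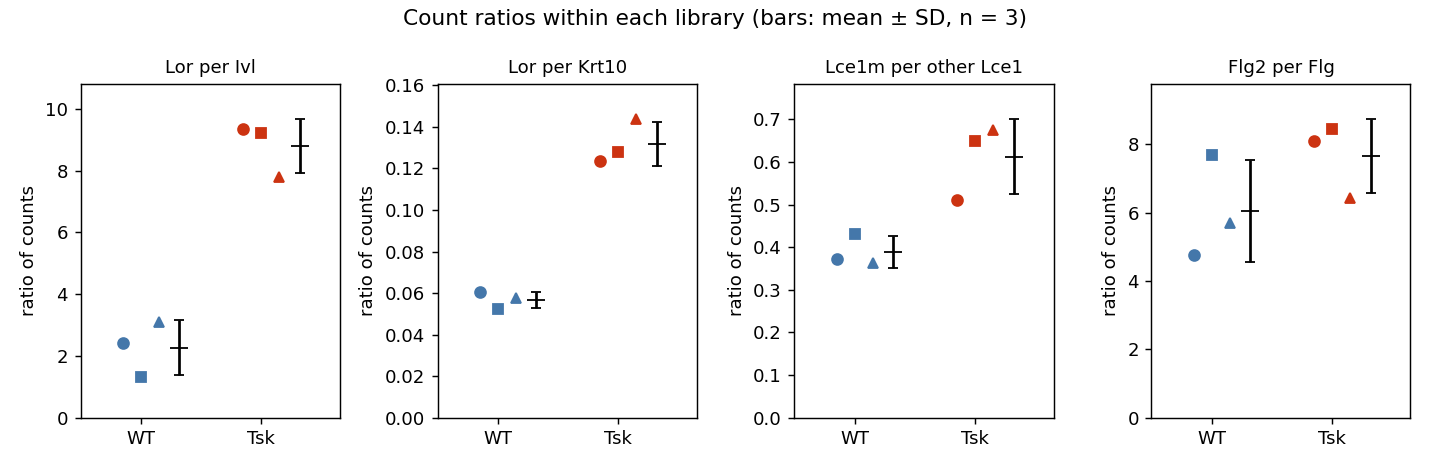
Ratios of counts within each library (vertical axes from 0) for Lor against Ivl, Lor against Krt10, Lce1m against the other 13 Lce1 genes and Flg2 against Flg, with wild type in blue, Tsk in red and bars of mean ± SD (n = 3). The first 3 ratios are higher in every Tsk library, and the ratio of Flg2 to Flg overlaps between the groups.

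The filaggrin family, whose long repetitive proteins are stored in granules, showed higher values in Tsk for the most abundant gene but none past the edgeR threshold. Flg2, encoding filaggrin-2, was at 552, 435 and 448 CPM in wild type and 1131, 925 and 699 CPM in Tsk. The groups did not overlap, and the means were 478 ± 63.9 and 918 ± 216 CPM (SD, n = 3 each). Its log2 fold change was 0.94 ± 0.23 (SE, edgeR adjusted p = 0.0644), just short of the threshold, and it passed in 6 of 14 alternative fits, with adjusted p-values of 0.0131 on library totals, 0.0154 without a filter and 0.000552 by DESeq2.

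Flg encodes profilaggrin, the precursor of filaggrin and of the water-holding molecules. It was at 116, 56.6 and 78.7 CPM in wild type and 139.9, 109.6 and 108.8 CPM in Tsk, with wild-type replicate 1 above 2 of the Tsk libraries. Its log2 fold change was 0.51 ± 0.25 (SE, edgeR adjusted p = 0.299). Flg2 counts outnumbered Flg counts, with ratios of 4.75, 7.69 and 5.69 in wild type and 8.08, 8.44 and 6.43 in Tsk that overlapped.

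Hrnr, encoding hornerin, was at 20.4, 18.6 and 21.9 CPM in wild type and 37.6, 30.02 and 15.2 CPM in Tsk, where replicate 6 was lowest of all (log2 fold change 0.44 ± 0.29, edgeR adjusted p = 0.441). Rptn, encoding repetin, was at 1.22, 0.778 and 3.23 CPM and 2.02, 2.67 and 2.35 CPM, also overlapping (0.43 ± 0.46). Crnn, encoding cornulin, was too scarce for the test, with 1, 1 and 2 counts in wild type against 11, 7 and 10 in Tsk, a ratio of 5.595 (95% exact counting interval 1.96 to 22.0).

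None of the S100 genes of the cluster passed the test as higher. S100a8 and S100a9, the alarmins, were scarce, with fewer counts in every Tsk library than in any wild-type library. S100a8 had 14, 10 and 17 counts in wild type against 0, 1 and 1 in Tsk, under the filter. Its wild-type total was 25.7 times the Tsk total, scaled to library size, with a 95% exact counting interval of 6.66 to 219. Without a filter on low counts, its edgeR adjusted p was 0.00134. It entered the test in all 6 fits that left out 1 library, passed as lower in 5 of them and had an adjusted p of 0.0756 without wild-type replicate 3. Those fits ask for the filter level in fewer libraries, and S100a8 reached it in wild type alone. These passes therefore carry no further weight. S100a9 had 10, 16 and 12 counts in wild type against 3.3, 6 and 1 in Tsk, which gave -2.21 ± 0.57 on the log2 scale (SE; adjusted p = 0.0722 by edgeR), without overlap. Neutrophils carry both transcripts, and neutrophil markers were scarce. Of 15, 4 could be tested and none passed by edgeR, by DESeq2 or at an unadjusted p under 0.05, Ly6g and Ctsg were at 0, and their summed level was 19.4 to 30.9 CPM in wild type and 22.8 to 28.9 CPM in Tsk. The part of neutrophils in the S100a8 and S100a9 difference was not tested.

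The 13 other S100 genes gave no call among the 11 tested, by edgeR, by DESeq2 or at an unadjusted p under 0.05. Of these, 5 lay above 0 and 6 below, with a median log2 fold change of -0.02. S100a11, an envelope-associated S100 protein and the member with the highest level per length (188 CPM per kilobase of exon in wild type and 186 in Tsk), was at 129.7, 72.5 and 86.8 CPM in wild type and 98.7, 97.2 and 89.3 CPM in Tsk. S100a6, the calcium-binding protein also known as calcyclin, was at 139, 75.4 and 97.2 CPM and 101.3, 90.8 and 93.5 CPM. Both overlapped, with log2 fold changes of -0.02 ± 0.21 and -0.12 ± 0.21. The direction of both turned above 0 when libraries were scaled to totals alone (0.22 and 0.12). S100a11 shares reads with near copies elsewhere, since 58.9% of its 50-base stretches are unique. S100a16 was the only one of these genes whose groups were separated (43.0, 33.2 and 42.2 CPM against 55.4, 45.1 and 44.8 CPM), with a log2 fold change of 0.29 ± 0.15 and an edgeR adjusted p of 0.307.

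Pglyrp3 and Pglyrp4, which encode secreted proteins that bind the bacterial cell wall, were low. Pglyrp3 was at 0.890, 0.454 and 1.49 CPM in wild type and 1.04, 1.31 and 1.51 CPM in Tsk, and Pglyrp4 at 6.34, 1.36 and 1.61 CPM and 3.27, 3.09 and 5.69 CPM. Both overlapped between the groups, with log2 fold changes of 0.44 ± 0.41 and 0.35 ± 0.55. Smcp, known from sperm mitochondria, had 1 count in 1 Tsk library and none elsewhere. Of the 22 members under the filter, 10 had counts that rounded to 0 in every library (Sprr2b, Sprr2f, Sprr2i, Sprr2j-ps, Sprr2k, Sprr3, Lce3a, Lce3e, Lce3f and S100a5), and none of the 12 others exceeded 25 counts in a library.

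3 further genes between Lor and Rptn that are not members also rose. Kprp, encoding a keratinocyte proline-rich protein, rose by 1.44 ± 0.23, from 34.6 ± 6.98 to 93.9 ± 27.3 CPM (SD, n = 3 each), with an edgeR adjusted p of 0.0172, and passed in 5 of the 6 fits that left out 1 library. The unnamed gene 2310050C09Rik rose by 1.26 ± 0.24 (log2 fold change ± SE, edgeR adjusted p = 0.0296) and passed in 2 of those 6 fits. The unnamed gene 2310046K23Rik rose by 1.15 ± 0.25 (edgeR adjusted p = 0.0461) and passed in 1 of them. Of the 56 non-members in the window, 38 were tested, 4 rose and none fell, with a median log2 fold change of -0.07, and 3 of those 4 lie among the 9 between Lor and Rptn. Over all genes tested, 2.72% passed as higher and 0.696% as lower.

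Genes other than members that act on the same proteins or in the same layers were compared in 5 lists, all of them outside the cluster apart from Kprp. Of 18 tested enzymes and proteases of differentiation, 6 rose and none fell, with a median log2 fold change of 0.54. Klk5, a kallikrein that cuts the bonds between horny cells, rose by 1.595 ± 0.20 (SE, edgeR adjusted p = 0.00792). Cst6, the protease inhibitor cystatin M/E, rose by 2.001 ± 0.27, and Asprv1, a protease that processes profilaggrin, by 1.49 ± 0.25. Tgm1, the transglutaminase that cross-links loricrin, rose by 1.13 ± 0.21 (edgeR adjusted p = 0.0285). Its partner Tgm3 overlapped between the groups at -0.64 ± 0.43.

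Of 18 barrier lipid genes, 4 rose and none fell (median 0.69). DESeq2 called 8 higher and none lower, while 12 were higher and 1 lower at an unadjusted edgeR p under 0.05. Those that rose include Sdr9c7 at 1.52 ± 0.24 and Alox12b at 1.396 ± 0.26, both of which help to attach ceramides to the envelope. The epidermal lipase gene Lipn rose by 2.06 ± 0.44, from 9, 15 and 8 counts in wild type to 65, 74 and 30 in Tsk. Lipn reached the filter level in all libraries of the Tsk group alone. It passed in 1 of the 6 fits that left out 1 library, so its call carries no further weight. Of 19 junction and scaffold genes, 5 rose and none fell (median 0.43), including Lypd5 at 1.64 ± 0.19 and Krtdap, a keratinocyte differentiation protein, at 1.72 ± 0.24. DESeq2 called 6 of the 19 higher, and 6 were higher at an unadjusted edgeR p under 0.05, with none lower by either. Kprp, already counted among the neighbours above, is 1 of the 5 that rose. Of 7 suprabasal keratins, Krt23 alone passed the edgeR test, at 0.99 ± 0.18, and 6 lay above 0 and 1 below. DESeq2 called 3 higher, and 3 were higher at an unadjusted edgeR p under 0.05. Krt77 was at 0.96 ± 0.27 (edgeR adjusted p = 0.0901) and Krt80 at 0.74 ± 0.17 (edgeR adjusted p = 0.0569), both without overlap of the groups. Krt10 was at 0.60 ± 0.27 (edgeR adjusted p = 0.261) and Krt1 at -0.23 ± 0.29, and both overlapped.

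Of 30 tested epidermal regulators, 3 rose and 1 fell, with a median log2 fold change of 0.07. DESeq2 called 6 higher and 1 lower, while 9 were higher and 2 lower at an unadjusted edgeR p under 0.05. Prdm1, a repressor known to act in the granular layer, rose by 1.52 ± 0.18 (edgeR adjusted p = 0.00748), Dlx3 by 1.87 ± 0.29 and Cebpa by 1.43 ± 0.29. Cebpa passed in 2 of the 6 fits that left out 1 library. It was at 89.3, 145.5 and 67.2 CPM in Tsk replicates 4, 5 and 6. Replicate 5 was also the highest for the adipocyte markers given below, and the part of fat in the rise of Cebpa was not tested. Fosl1, a component of AP-1, fell, with a value of -2.56 ± 0.53 on the log2 scale (edgeR adjusted p = 0.0376), from 31, 33 and 96 counts to 11, 9 and 14. Dlx3 is also in the list of inner root sheath and hair matrix markers, of which 4 of 13 tested rose, with Krt25 at 4.77 ± 0.74 and Krt27 at 2.58 ± 0.51. DESeq2 called 3 of the 13 higher, and 6 were higher at an unadjusted edgeR p under 0.05. In wild type, Krt25 had 1.7, 4.4 and 0 counts and Krt27 had 4.3, 5.6 and 5.0. Both reached the filter level in Tsk alone. The markers of this list summed to 139 to 198 CPM in wild type and 171 to 221 CPM in Tsk. Most of that sum came from Gata3 (mean 108 and 105 CPM) and Tchh (46.3 and 41.4 CPM), neither of which passed the test. In the stressed epidermis list, 0 of 5 tested passed by edgeR, with 1 lower at an unadjusted p under 0.05 and 1 lower by DESeq2, and with Krt6a at -0.27 ± 0.22 and Krt17 at 0.19 ± 0.24. The gene at an unadjusted p under 0.05 was Krt6b, a keratin of stressed epidermis named here after its values were seen. In CPM it stood at 10.5, 0.842 and 23.4 without Tsk and at 0.415, 0.0935 and 0.188 with it, and the groups were separated (log2 fold change -5.63 ± 1.23, edgeR adjusted p = 0.0572). Krt6b closely resembles Krt6a, so reads may be split between them. Without wild-type replicate 3, 0 enzymes, 0 lipid genes, 2 scaffold genes, 0 keratins and 0 regulators passed. With the muscle covariate none of the 5 lists held a call. Over all genes, 63 passed without wild-type replicate 3 and 67 with the muscle covariate, beside 683 in the main fit. The log2 fold changes in the fit with the muscle covariate were 1.64 for Lypd5, 1.83 for Krtdap, 1.49 for Klk5 and 1.42 for Prdm1, with edgeR adjusted p-values of 0.0598, 0.124, 0.0689 and 0.0597.

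**Figure D5:**
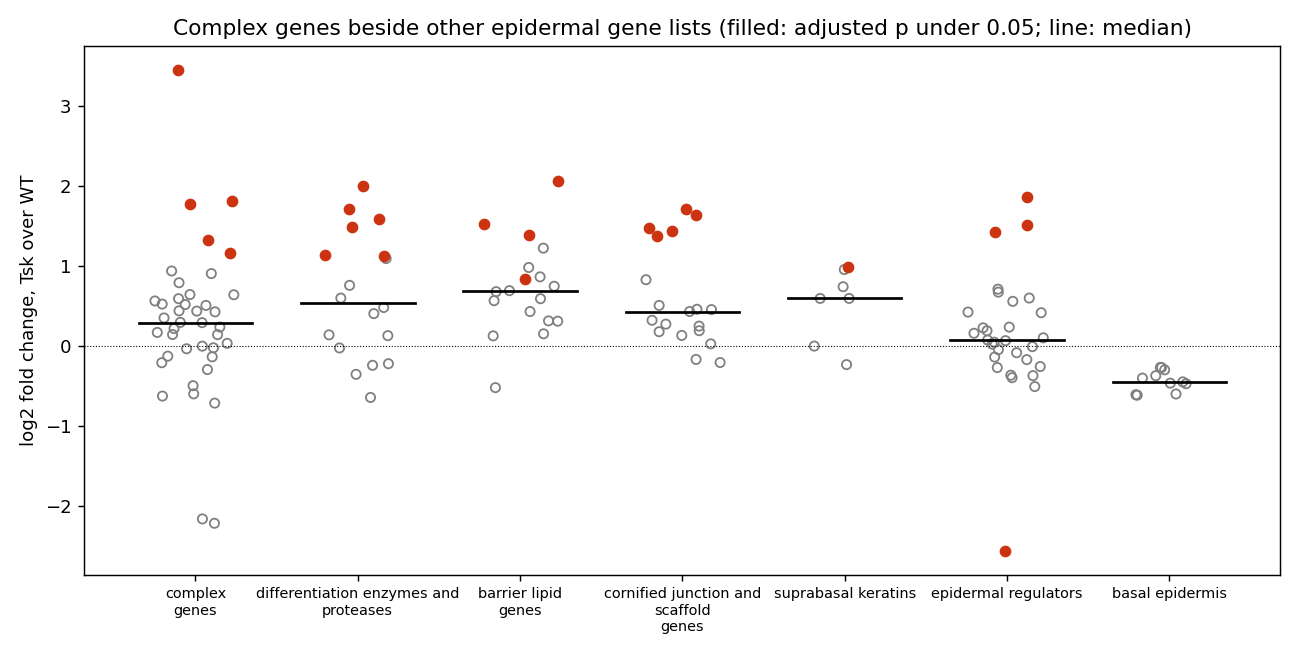
Log2 fold change of Tsk over wild type for each tested gene of the complex, of 5 other epidermal gene lists and of the basal epidermis markers; filled points passed an adjusted p under 0.05 and lines mark the median. Medians of the complex, the enzymes, the lipid genes, the scaffold genes and the keratins lie between 0.30 and 0.69, the regulators lie near 0, and all 11 basal markers lie below 0.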

How the data were processed

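RNA of 6 dorsal skin samples, 3 wild type and 3 Tsk grouped by their labels, was made into strand-marked libraries once ribosomal RNA had been removed, per the labels' protocols. The submitters' processing notes name bcl2fastq 2.19.1.403, STAR, Partek 7.0 and the mm10 build. How reads were counted, and on which gene models, is not given in the sources used here. Per gene, the authors deposited estimated counts (also called expected counts), and 136 of the 372 values of the members, in 31 genes, are not whole, as when reads are shared between genes. They also deposited CPM values and a TMM-normalised signal, which were used only in alternative fits, as log2 of the value plus 0.5 or 0.1.

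Counts were rounded and tested with edgeR 4.0.16 in R 4.3.3 (quasi-likelihood F-test with TMM factors, robust dispersions and the expression filter at minimum count 10 and minimum total 15). Benjamini-Hochberg adjusted p-values under 0.05, over all 19971 genes tested, were called. An SE is the absolute log2 fold change over the root of its F statistic. CPM in the text are rounded counts scaled to the TMM-adjusted total, computed here. Levels per kilobase use the union of exons in GENCODE M21, whose span and strand match 59 of the 62 members. Alternatives were other scalings and filters, DESeq2 1.42.0, limma 3.58.1 (voom and trend), protein-coding genes alone, marker covariates and leaving out each library. The edgeR fit was checked on simulated data. Intervals on ratios of counts are exact binomial intervals and cover counting error only, since PCR copies are counted with the molecules they came from. Every pair of libraries differed by more than sampling noise, with chi-square per degree of freedom of at least 8.87.

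The members, the 5 gene lists, the 13 marker lists and the rule for named genes were chosen with earlier results of these data known. The rule named, with values per sample, each member past the threshold, 10 chosen members and the 2 most abundant per length of each role. S100a16, Lce6a, Lce1c, Sprr2a2 and Sprr2h were added after their values were seen. So were Tgm1, Tgm3, Krt1, Krt10, Krt77, Krt80, Gata3, Tchh, Fosl1, Cxcr2, Mmp8 and Prtn3. Of the marker lists, 1 of 13 hair shaft symbols had no matching row.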

Additional observations from a re-analysis of the deposited data

How the results depend on the processing

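Of the 62 members, 4 to 6 were called higher under the other scalings, the stricter filter, DESeq2, both limma methods, protein-coding genes alone and the basal epidermis covariate. Without a filter on low counts 8 were called, 5 higher and 3 lower (S100a8, S100a9 and Sprr1b). Leaving out 1 library gave 0 to 8, with 8, 2 and 0 when wild-type replicate 1, 2 or 3 was left out and 3 when Tsk replicate 4 was. With the skeletal muscle markers as a covariate 0 were called, and Lor was then at 1.69 with an adjusted p of 0.0972. With the Lce1 genes summed, an alternative chosen after seeing the data, 4 were called. The cause of these shifts was not tested. No paired analysis was possible because the labels number the samples 1 to 3 in wild type and 4 to 6 in Tsk, with no number shared.

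Among all genes, 1791 were called on library totals, 1157 without a filter, 1586 by DESeq2, 1916, 1887 and 1279 by limma-trend on the deposited CPM plus 0.5, CPM plus 0.1 and TMM-normalised values, 67 with the muscle covariate, 114 with the basal covariate and 63 to 1381 without 1 library. The calls were 94.6% higher on library totals and by limma-trend on CPM plus 0.5, 94.7% on CPM plus 0.1, 91.2% on TMM-normalised values, 95.6% with the basal covariate, 61.2% with the muscle covariate and 55.3% without wild-type replicate 1. With the muscle covariate, 0 enzymes, 0 lipid genes, 0 regulators, 0 scaffold genes and 0 keratins were called. Barrier lipid genes numbered 12 on library totals, 8 without a filter, 8 by DESeq2, 2 by limma-voom, 13, 13 and 8 by limma-trend and 1 with the basal covariate. Regulators numbered 9 on library totals, 7 by DESeq2 and 9, 9 and 8 by limma-trend, and suprabasal keratins 3 in each of these 5 fits and 3 without a filter. Leaving out 1 library gave 0 to 6 enzymes, 0 to 3 lipid genes, 0 to 7 regulators, 2 to 6 scaffold genes and 0 to 2 keratins.

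Directions turned for members near 0. S100a6 was at 0.12 on library totals, 0.20, 0.20 and 0.067 by limma-trend, 0.26 with the basal covariate and -0.30 to 0.17 without 1 library. S100a11 was at 0.22 on library totals, 0.028 by limma-voom, 0.30, 0.30 and 0.17 by limma-trend, 0.34 with the basal covariate and -0.18 to 0.28 without 1 library. Ivl was at 0.0052 and 0.0058 by limma-trend on CPM plus 0.5 and 0.1, and Pglyrp4 at -0.62 with the muscle covariate. With the basal covariate, Krt5 was at 0.0053, Krt15 at 0.22, Krt6a at 0.047 and Mmp9 at -0.036. Il1r2 was at -0.39 with the muscle covariate and -0.17 to 0.44 without 1 library, Krt17 at -0.023 to 0.39 and Mmp9 at -0.034 to 0.77 without 1 library. Counts of at most 25 per library limit what can be seen for Lce3, Crnn, S100a8, Sprr1b and the Sprr2 genes other than Sprr2a2, whose limit is shared reads.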

Other observations

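Markers of other parts of the skin were read in the same libraries. Fibroblast markers summed to 6730 to 11670 CPM in wild type and 20400, 19180 and 43350 CPM in Tsk replicates 4, 5 and 6, and 2 of 12 rose (Pi16 by 3.14 ± 0.43 and Dpt by 1.22 ± 0.22, log2 fold change ± SE, edgeR). Endothelial markers ran from 177 to 230 CPM and from 276 to 433 CPM, with Plvap, Vwf and Tek of 10 higher. Adipocyte markers ran from 258 to 343 CPM in wild type and were at 775, 3009 and 548 CPM in Tsk, so that replicate 5 stood apart. Of 10, Lep and Cfd were higher, and each passed in 3 of the 6 fits that left out 1 library. At an unadjusted edgeR p under 0.05, 8 of 12 fibroblast, 10 of 10 endothelial and 10 of 10 adipocyte markers were higher and 0 lower. DESeq2 called 8, 5 and 7 of them higher and 0 lower.

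Sebaceous gland markers ran from 344 to 645 CPM in wild type and were at 1197, 9162 and 780 CPM in Tsk, where replicate 5 again stood apart, with 0 of 8 past the edgeR threshold (3 at an unadjusted p under 0.05, 2 by DESeq2). In Tsk replicate 5, Scd1 at 5640 CPM and Fasn at 3334 CPM made up nearly all of that sum, and adipocytes also express both. Awat2, Mc5r and Elovl3 overlapped between the groups, at 0.20 ± 0.40, 0.19 ± 0.19 and 0.06 ± 0.64 (log2 fold change ± SE). Macrophage markers ran from 304.5 to 400.5 CPM in wild type and were at 442, 576 and 1147 CPM in Tsk (0 of 10 by edgeR, 7 unadjusted, 4 by DESeq2), mast cell markers from 7.68 to 9.98 CPM and from 12.1 to 24.0 CPM (0 of 6, 6 unadjusted, 2 by DESeq2), melanocyte markers from 27.0 to 33.2 CPM and from 33.4 to 37.7 CPM (0 of 5 tested, 3 unadjusted, 1 by DESeq2) and hair shaft markers from 18.8 to 30.8 CPM and from 33.9 to 42.6 CPM (0 of 9 tested, 6 unadjusted, 2 by DESeq2). The part of these shifts in the differences among the complex genes was not tested.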
